A study of Mus musculus with 7 samples.

Results

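Type 1 conventional dendritic cells (cDC1) were studied in the stromal vascular fraction of mouse inguinal subcutaneous adipose tissue, that is, in all of its cells other than the fat-filled adipocytes. They were chosen by raw transcript counts in single-cell RNA sequencing, as the cells in which at least 1 transcript of Xcr1 or Clec9a was counted. Each transcript was counted as a unique molecular identifier (UMI), a random tag that marks 1 captured RNA molecule. A cell also had to hold at least 20 UMIs of Cd74, at most 2 UMIs summed over the macrophage genes C1qa, C1qb and C1qc, and no UMI of the B cell gene Cd79a or the T cell gene Cd3e. Cells with at least 2 UMIs of Ccr7 together with at least 1 UMI of Fscn1, which mark migratory dendritic cells, were left out. Under these limits 410 of 39566 kept cells (at least 500 UMIs and 300 genes, at most 15% mitochondrial UMIs) were cDC1, which is 1.04% of them. The limits are themselves expression values, so the levels of these genes are given as a description of the members.

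The series compared old mice of 18 months with young mice of 11–12 weeks, all female C57BL/6N. Tissue was digested with collagenase, red blood cells were lysed and libraries were made with the 10x Genomics 3′ v3 chemistry. There were 3 old libraries and 4 young libraries, and the design text counts as many mice. The labels name no genetic change and no drug for either age. Whether each library came from 1 mouse is not stated in the labels, so the p-values measure the spread between libraries.

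Conventional dendritic cells sample tissue antigen and carry it to T cells. The cDC1 lineage is known for taking up dead cells, which CLEC9A senses through exposed actin, and for cross-presentation, the display of captured antigen on MHC class I to CD8 T cells. Its development needs the transcription factors IRF8, BATF3 and ID2, and XCR1 is the receptor for the chemokine XCL1 that CD8 T cells and natural killer cells release. The sister lineage cDC2, marked in mouse tissue by SIRPA, IRF4 and, in part, CD209A, presents mainly on MHC class II to CD4 T cells.

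The promoters of both genes that define the cells are shown because the letters of composite IRF and AP-1 elements, a kind of site that IRF8 can bind together with BATF3, were searched in them. Each line gives the 250 bases before the annotated gene start, from RefSeq on build GRCm38.p6. It is read 5′ to 3′ on the strand of the gene. Capitals mark the match, on either strand, to a spaced partial composite made of TTTC, 4 bases of any kind and TGA. This pattern holds only the TGA of the AP-1 motif TGANTCA, so a match alone does not make a full composite element. The Xcr1 sequence is the minus strand of chr9:123862030-123862279, and the Clec9a sequence is the plus strand of chr6:129408612-129408861.
Xcr1: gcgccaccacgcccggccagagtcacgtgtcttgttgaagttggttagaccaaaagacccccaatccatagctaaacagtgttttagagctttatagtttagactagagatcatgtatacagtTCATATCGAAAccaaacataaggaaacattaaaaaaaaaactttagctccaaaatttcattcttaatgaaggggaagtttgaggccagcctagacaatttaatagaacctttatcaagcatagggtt
Clec9a: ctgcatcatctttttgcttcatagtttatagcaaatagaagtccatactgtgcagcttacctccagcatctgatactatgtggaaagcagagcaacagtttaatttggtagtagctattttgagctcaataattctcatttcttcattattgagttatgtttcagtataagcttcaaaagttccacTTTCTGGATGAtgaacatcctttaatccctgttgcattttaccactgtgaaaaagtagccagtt
The match begins 127 bases before the Xcr1 start, where it reads on the opposite strand, and 64 bases before the Clec9a start. Of 32851 RefSeq promoter windows reaching from 250 bases before to 50 bases after a gene start, 4.56% held this motif. The other 5 motifs searched on both strands were TGANTCA, that motif directly after GAAA, GGAA followed after 2 bases by GAAA, GAAA followed after 2 bases by GAAA, and GAGGAAGT, with shares of 7.81%, 0.125%, 2.72%, 3.44% and 3.2% of the windows. TGANTCA is contained in the second of them. None of the 5, the full AP-1 motif TGANTCA among them, occurred in the Xcr1 or the Clec9a window. The windows of 6 other genes high in cDC1 could be matched, and 0 of them held the spaced partial composite. Of the other 5 motifs, TGANTCA occurred in 1 of the 6, that of P2ry14. GGAA followed after 2 bases by GAAA occurred in 1, that of Timd4, and the rest in 0.

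The old libraries held 32, 96 and 58 cDC1 cells (old 1, 2 and 3), and the young libraries held 20, 104, 25 and 75 (young 1 to 4). The median cDC1 cell held 16010 to 16684.5 UMIs in the old libraries and 16946 to 21008 in the young ones. Summed over a library's cDC1 cells, the depth ran from 361449 UMIs in young 1 to 1965887 in young 2, with 7670192 in all. No cell barcode was shared between libraries among these cells, and 17 of the 410 were called doublets. Young 1 stood apart before any comparison: its immediate early genes, a set of 26 rapidly induced genes that includes Fos and Jun, summed to 3859 CPM (UMIs per 1000000 UMIs of the library's cDC1 sum), against 13075 to 20778 CPM in the other 6 libraries. It also held the fewest cells, so the shares, the edgeR count of genes by age and several of the gene lists are given with and without it. Its Id2 level was 1959 CPM, against 235 to 401 CPM in the other 6 libraries.

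In these cells Clec9a was detected in 376 and Xcr1 in 293, with 259 (63.2%) holding both. The label was checked on genes the gate did not use, by the number of Xcr1 and Clec9a UMIs a cell held. Irf8, which encodes the factor that specifies the lineage, was detected in 35.4% of the 82 cells with 1 such UMI, in 82.2% of the 45 cells with 2, in 93.3% of the 60 cells with 3 to 4 and in every cell with 5 or more. Cd209a ran the other way, being detected in 69.5% of cells with 1 UMI, 26.7% with 2 and 8.33% with 3 to 4. Sirpa, an inhibitory receptor of cDC2 and macrophages, was detected in 70.7%, 24.4% and 15% of the same cells. The cells of the lowest step were of more than 1 kind. Among the 82 cells with 1 UMI, 57 also held Cd209a, and in their sum Irf8 stood at 117 CPM, while in the 25 without Cd209a it stood at 1060 CPM. Irf8 is also a gene of plasmacytoid dendritic cells, and their surface marker Siglech was detected in 7.32%, 4.44%, 6.67%, 1.74% and 0.926% of cells at 1, 2, 3 to 4, 5 to 9 and 10 or more UMIs. At least 5 Siglech UMIs, a limit chosen after seeing the values, were found in 12 cells, 4 in old 2, 5 in young 2 and 3 in young 4. All 12 held Irf8, 0 held Xcr1 and 2 held Naaa, so they entered by Clec9a, and 6 of them had at least 2 UMIs of it. Without them Irf8 stood at 1331 CPM in old 2, 841 CPM in young 2 and 888 CPM in young 4.

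The free transcripts that reach every droplet give a background for a limit of 1 UMI. An Xcr1 or Clec9a UMI was found in 0 to 0.638% of progenitor cells, 0.468 to 1.75% of macrophages, 0 to 1.72% of B cells and 0 to 1.36% of T cells, by library. The median depth of those progenitors was 9634 to 26299 UMIs and that of the macrophages 6712 to 11269. Cells with 1 UMI made up 15.6% of the old cDC1 cells (29 of 186) and 23.7% of the young ones (53 of 224). Some age results, those of the cDC1 core and cDC2 lists among them, are therefore also given for the 328 cells with at least 2 UMIs. The levels beside the cDC2 gate are given for all cDC1 cells only, and the cells with 1 UMI shift them. In pooled sums, cells with 1 UMI had 105 CPM of Sirpa, 101 of Cd24a and 76.9 of Batf3. Those with at least 2 had 10.9, 496 and 121 CPM.

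**Figure D1:**
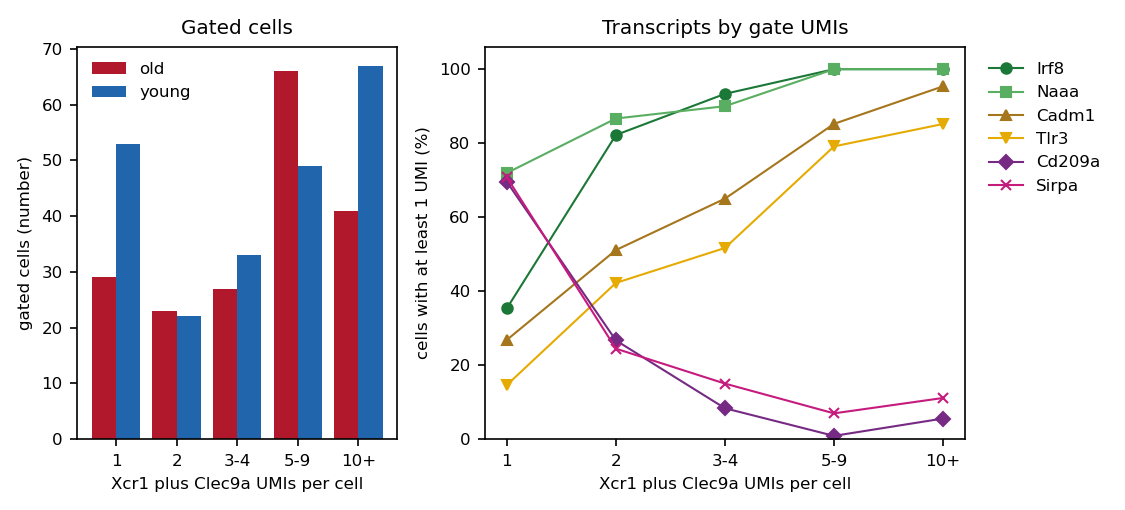
Left, number of cDC1 cells from old and young libraries by the Xcr1 and Clec9a UMIs in the cell (horizontal axis, 5 steps), and right, percent of the cells at each step with at least 1 UMI of each gene. Irf8 was found in 35.4% of the 82 cells with 1 UMI and in 100% at 5 or more, while Cd209a was found in 69.5% at 1 UMI and in 5.56% at 10 or more.

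Irf8 was also read just inside and just outside each limit. The 11 cells with 20 to 39 Cd74 UMIs had 707 CPM of Irf8 in their sum, and the 4 cells just outside, with 10 to 19, had 149 CPM. These values rest on 88 and 2 Irf8 UMIs. Of the 88, 17 lay in a cell with 9 Siglech UMIs and 30 in a cell with 5. For the C1q genes, the 147 cells with 1 to 2 UMIs had 1133 CPM of Irf8 and the 18 cells just outside, with 3 to 4, had 1372 CPM. At the Xcr1 and Clec9a limit itself, the 82 cells with 1 UMI had 365 CPM of Irf8, against 71.2 CPM in the 859 cells outside it with none. Irf8 was higher inside than outside at the Cd74 limit and at the Xcr1 and Clec9a limit, but not at the C1q limit. The Cd74 limit cannot be judged from so few cells and UMIs, some of them from cells with Siglech.

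The genes of cDC1 identity were read beside the cDC2 gate, 378 cells with the same limits but no Xcr1 or Clec9a UMI and at least 1 UMI of Cd209a. This is a description without a test, over the 6 libraries with at least 10 cells in both gates, so young 1, with 6 cDC2 cells, is not in it. Of 2950 genes that reached 50 CPM in the higher gate, 474 (16.1%) were higher in cDC1 in every library and 618 (20.9%) were lower in every library. Of the 23 cDC1 core genes at that level, 22 were higher in cDC1 in every library, with a median log2 ratio of 2.23. That list holds the lineage's own genes, so its direction follows from the choice of cells.

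Irf8 had 1244, 1382 and 1075 CPM in the old cDC1 sums, and 2039, 856, 933 and 927 CPM in the young ones. Its cDC2 levels were 11.5 to 111 CPM, and the median log2 ratio was 4.83. Tlr3, the endosomal sensor of double-stranded RNA, had 52.5 to 161 CPM in the cDC1 of the 6 libraries and 0 to 8.53 CPM in cDC2. Cadm1, an adhesion molecule used as a surface mark of cDC1, had 156 to 259 CPM in cDC1 and 7.68 to 29.8 CPM in cDC2. None of these ranges overlapped between the gates.

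Batf3, the partner of IRF8, differed little from cDC2: its cDC1 levels were 138, 126 and 111 CPM in the old libraries and 221, 98.7, 105 and 87.5 CPM in the young ones, and cDC2 had 70.1 to 103 CPM, a median log2 ratio of 0.31. Zbtb46, a factor shared by both conventional lineages, had a median log2 ratio of 0.14 and was higher in cDC1 in 4 of 6 libraries. Flt3, the growth factor receptor that both lineages need, stood at 142, 164 and 145 CPM in the old cDC1 sums and 177, 121, 168 and 144 CPM in the young ones, with a median log2 ratio to cDC2 of 0.34. The wide differences were thus in Irf8, Tlr3 and Cadm1, and these 3 genes common to both lineages differed by less.

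The 22 lysosome and lipid genes at 50 CPM ran mostly the other way: 4 were higher and 11 lower in cDC1 in every library, with a median log2 ratio of -0.70. Further genes high in cDC1 were read in the same way. Wdfy4, a BEACH-domain protein that cDC1 need to cross-present cell-bound antigen, had 681, 630.4 and 469 CPM in the old libraries and 470.3, 500.03, 491 and 471 CPM in the young ones, while cDC2 had 74.9 to 124 CPM. Naaa, a lysosomal hydrolase of fatty acid ethanolamides, had 726 to 1426 CPM in the cDC1 of the 6 libraries and 154 to 318 CPM in cDC2. Ppt1, a lysosomal thioesterase that removes palmitate from proteins, had a median log2 ratio of 3.31, and Rab7b, a small GTPase of late endosomes, one of 3.10. The gate named by Cd209a had the higher level in every library for Sirpa (5.25 to 39.8 CPM in cDC1, 136 to 203 CPM in cDC2) and for Itgam, the integrin CD11b (15.7 to 42.6 CPM in cDC1, 155 to 303 CPM in cDC2).

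The 10 highest ratios outside the gate genes were those of Irf8, Tlr3, Cadm1, A530099J19Rik, P2ry14, Cxx1b, Agpat3, Timd4, Ppt1 and Rab7b. P2ry14, a receptor for UDP-sugars, had 112, 102 and 67.4 CPM in the old cDC1 sums and 94.1, 96.1, 72.3 and 127 CPM in the young ones, against 0 to 16.0 CPM in cDC2. Timd4, a phosphatidylserine receptor better known from resident macrophages, had 119, 70.5 and 34.7 CPM in old and 22.1, 74.3, 16.2 and 66.7 CPM in young cDC1, against 1.6 to 12.8 CPM in cDC2. Havcr2 (TIM-3), another receptor of that family and an inhibitory receptor on cDC1, had 91.0, 99.7 and 56.5 CPM in old and 66.4, 65.1, 100.4 and 70.9 CPM in young cDC1, against 4.26 to 13.5 CPM in cDC2. Itgae, the integrin CD103 that marks many tissue cDC1, was detected in 76 of the 410 cells, and Cd207 (langerin), which marks skin cDC1, in 10.

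**Figure D2:**
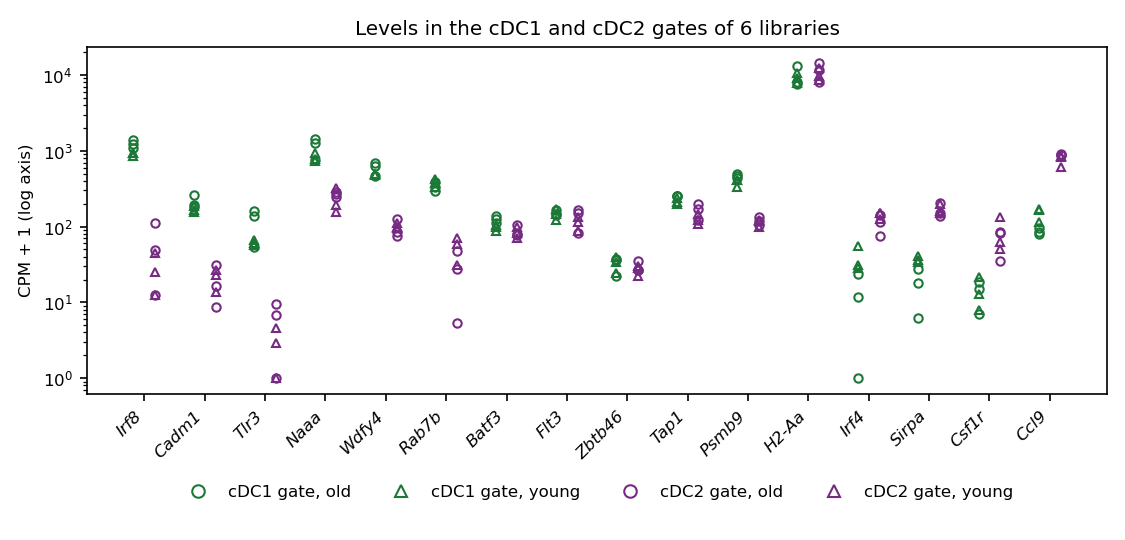
Level of 16 genes as CPM with 1 added (logarithmic axis) in the cDC1 sum (green) and the cDC2 sum (purple) of each of 6 libraries, 1 point a library, circles for old and triangles for young. Irf8, Tlr3, Cadm1 and Wdfy4 are higher in cDC1 without overlap, Sirpa and Ccl9 are higher in cDC2 without overlap, and Batf3 has a median log2 ratio of 0.31.

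Of the 22 class I and cross-presentation genes at 50 CPM, 7 were higher and 5 lower in cDC1 in every library, with a median log2 ratio of 0.068. The immunoproteasome subunit gene Psmb9 had 492, 436 and 463 CPM in the old cDC1 sums and 581, 411, 337 and 413 CPM in the young ones, and cDC2 had 97.6 to 132 CPM, a median log2 ratio of 1.88. Psmb8 (1.01), the proteasome activator genes Psme1 (1.24) and Psme2 (0.77), the peptide transporter genes Tap1 (0.77) and Tap2 (1.24), and Tapbp (0.42), which encodes the loading chaperone tapasin, were the other 6, on the same ratio. Psmb10, a further immunoproteasome subunit gene, had a median log2 ratio of 0.26 and was higher in 4 of 6 libraries. The 5 lower genes were H2-K1 and H2-D1 (-0.39), which encode class I heavy chains, B2m (-0.36), their light chain, and Cybb (-1.89) and Cyba (-0.33), subunits of the phagocyte NADPH oxidase. H2-K1 had 839.9 to 1226 CPM in cDC1 and 1066 to 1599 CPM in cDC2.

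Among the class II genes, 1 of 11 was higher and 5 were lower in cDC1 in every library, with a median of -0.16. H2-Aa, an MHC class II alpha chain, had 8033, 7505 and 13024 CPM in old and 8054, 7766, 9169.7 and 10521 CPM in young cDC1, and its median log2 ratio to cDC2 was -0.15. Ctss, the protease that trims the invariant chain, had a median log2 ratio of -1.02, and Ifi30, the lysosomal thiol reductase GILT, one of -1.10. H2-Ob, part of the H2-O dimer that restrains class II peptide loading, went the other way, with 105 to 152 CPM in cDC1 and 49.7 to 98.0 CPM in cDC2. The 13 chemokine and cytokine genes at that level held none that was higher in cDC1 in every library and 5 that were lower. Ccl9, a chemokine of myeloid cells, had 78.7 to 171 CPM in cDC1 and 617 to 895 CPM in cDC2.

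A share of the cDC1 was in the cell cycle as judged by transcripts. With at least 3 UMIs over 17 genes of DNA replication and mitosis, such as Mki67 and Top2a, 121 of the 410 cells counted as cycling, 43 in old libraries and 78 in young ones. These were deeper cells, with a median of 25070 UMIs against 15937 in the rest, so the shares were also taken after thinning every cell to 3000 UMIs. Among cells with at least 2 UMIs of Xcr1 and Clec9a, 104 cycling cells were set beside 224 others within each library, as CPM levels without a test. These levels were not thinned. The cycling cells numbered 5, 16 and 18 in old 1 to 3 and 8, 30, 7 and 20 in young 1 to 4. Only chosen genes were read, and how many of all genes were lower in every library was not counted.

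The mean over libraries was lower in cycling cells, and so was the level in 7 of 7 libraries, for Flt3 (125 CPM in cycling cells, 165 in the others), Wdfy4 (528 and 654), H2-Aa (7745 and 9639) and Cst3, a cysteine protease inhibitor abundant in cDC1 (18228 and 22345). Among the lineage factors the direction varied by library. Id2 averaged 566 CPM in cycling cells and 624 CPM in the others and was higher in cycling cells in 2 of 7 libraries. Irf8 averaged 1403 CPM in cycling cells and 1351 CPM in the others and was higher in cycling cells in 3 of 7 libraries, and Batf3 averaged 135 CPM and 134 CPM, higher in 4 of 7.

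No difference in the abundance of cDC1 between the ages was detected. Of all kept cells, cDC1 made up 0.483%, 1.29% and 0.945% in the old libraries, with exact 95% binomial intervals of 0.330 to 0.681%, 1.04 to 1.57% and 0.718 to 1.22%. In the young libraries they made up 0.426%, 1.76%, 0.871% and 1.28%, with intervals of 0.260 to 0.657%, 1.44 to 2.13%, 0.565 to 1.28% and 1.006 to 1.598%. The means were 0.905 ± 0.404% in old and 1.08 ± 0.569% in young (SD, n = 3 and 4), and the range of the young libraries enclosed all old ones. An exact 2-sided permutation test on mean logit shares gave p = 0.8286, adjusted over 3 shares to 0.971, and the 35 ways of assigning 3 of 7 libraries to old allow no p below 0.0286. The mean logit difference of old minus young was -0.138. It was -0.406 without young 1, and its sign turned without young 2 or old 1, with a highest value of 0.137. With the C1q genes at 0 UMIs, where old 2 kept 33 of its 96 cells, it was -0.462 (exact permutation p = 0.4).

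Among the dendritic cells of the 3 gates, cDC1 made up 59.3%, 58.5% and 34.7% in the old libraries and 69.0%, 53.1%, 37.3% and 40.3% in the young ones. The means were 50.8 ± 14.0% and 49.9 ± 14.4% (SD, n = 3 old and 4 young), with an exact permutation p of 0.971. After thinning, cycling cells made up 16.1%, 11.6% and 17.5% of old cDC1 and 15%, 17.3%, 20% and 23.3% of young cDC1. The means were 15.1 ± 3.12% and 18.9 ± 3.57% (SD, n = 3 old and 4 young), the ages overlapped, and the exact permutation p was 0.257, adjusted to 0.771. The logit difference of old minus young was 0.0302 for the share of dendritic cells and -0.282 for the cycling share, and without young 1 it was 0.287 and -0.349. Without thinning the shares were 18.75%, 18.75% and 32.8% in old and 40%, 32.7%, 40% and 34.7% in young, with an exact permutation p of 0.0571. The depth per kept cell also differed, at 6130 to 8028 UMIs (median by library) in old and 9327 to 14100 in young, and its part in the unthinned shares was not tested beyond the thinning.

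**Figure D3:**
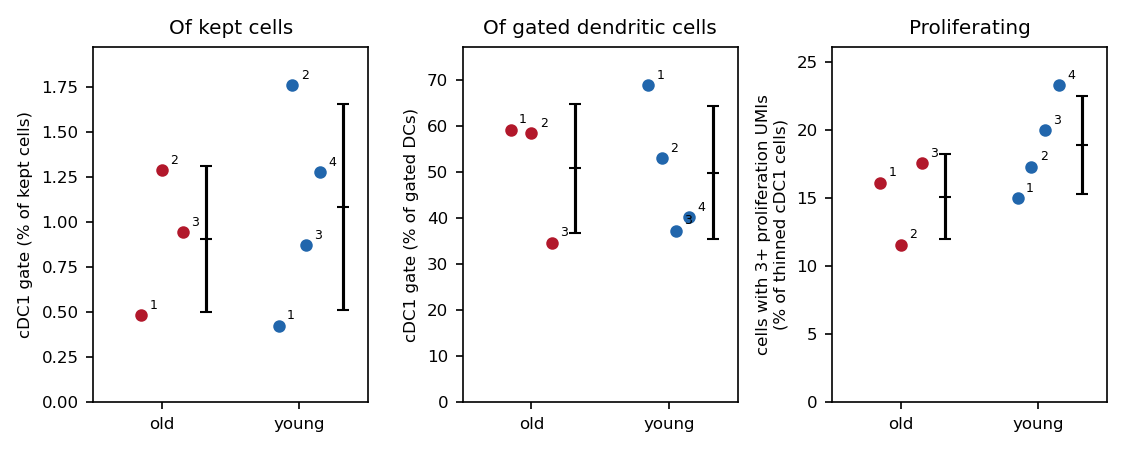
cDC1 as percent of kept cells, cDC1 as percent of gated dendritic cells, and percent of thinned cDC1 that were cycling, 1 point a library with its number, old left of young, with bars for the mean and SD. The old and young points overlap in all 3 panels, and the exact permutation p-values were 0.8286, 0.971 and 0.257.

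For gene levels, the UMIs of each library's cDC1 cells were summed, and old was tested against young with edgeR's quasi-likelihood test. None of 7556 genes (0%) passed an adjusted p of 0.05, and the lowest adjusted p was 0.150. At an unadjusted p under 0.05 there were 334 genes (4.42%), 93 of them higher in old (1.23%) and 241 lower (3.19%). DESeq2 on the same counts called 51 of 7554 genes (0.675%), all lower in old, and 49 of these 51 were higher in the sum of all cells outside the dendritic cell gates than in cDC1. Of the 241 genes lower at an unadjusted p, 210 were higher outside the gates, and of the 93 higher ones 36 were. Over all 7551 genes tested other than the gate genes the same held for 4406. Old and young libraries did not overlap for 159 genes (2.11%) that were higher in old and 223 (2.95%) that were lower, of which 67 and 164 were more abundant outside the gates than in cDC1. Without young 1, edgeR called 4 genes, all lower in old: Meg3 (log2 fold change -4.23), Gpc3 (-4.13), Mir155hg (-3.42) and Bcl2a1b (-1.37).

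Of the 10 lower genes with the lowest p among those without overlap, 8 were more abundant outside the dendritic cell gates than in cDC1. The same held for 164 of all 223 lower genes without overlap and for 4406 of the 7551 genes tested. Meg3, an imprinted long noncoding RNA, had 15.7, 6.08 and 2.97 CPM in old cDC1 and 41.5, 92.1, 142 and 162 CPM in young cDC1 (log2 fold change -3.96, SE 0.59, edgeR adjusted p = 0.150). Gpc3, the heparan sulfate proteoglycan glypican-3, had 1.75, 3.04 and 0 CPM in old and 69.2, 27.5, 47.2 and 25.7 CPM in young (-4.36, SE 0.60, edgeR adjusted p = 0.150). The ages did not overlap for either gene. With called doublets left out, the log2 fold change of Meg3 was -1.89 (edgeR adjusted p = 0.9997), and Gpc3, Cpxm1, Itm2a, Adamts2 and Loxl1 did not reach the expression filter. Mmp2, a gelatinase (-3.54), Cpxm1 (-4.84), Itm2a (-6.28), Adamts2, a procollagen protease (-5.41), Lum, the collagen-binding lumican (-3.37), and Loxl1, a lysyl oxidase of elastic fibres (-3.49), had log2 fold changes of the same sign, without overlap and without passing the edgeR test.

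The markers of adipose progenitors, the collagen-producing cells of this tissue, were read beside these genes. Col1a2, a chain of type I collagen, had 40.2, 51.7 and 6.94 CPM in old cDC1 and 531, 241, 1538 and 276 CPM in young cDC1. In the cells with at least 2 Xcr1 and Clec9a UMIs it had 22.4, 28.8 and 8.13 CPM in old and 30.9, 267, 1465 and 348 CPM in young, where young 1 lay just above the old libraries. All 8 markers of adipose progenitors were lower in old at an unadjusted p under 0.05, with a median log2 fold change of -3.16, beside 0.0225 over all genes tested. Their sum was 340 to 1233 CPM in old cDC1 and 1587 to 9182 CPM in young cDC1, and 13821 to 45805 CPM in the cells outside the gates. Every old library was below every young one in this sum. With called doublets left out it was 467, 375 and 340 CPM in old and 4828, 1084, 672 and 517 CPM in young, again without overlap. Leaving out 4 called cells took young 3 down from 9182 CPM, and leaving out 8 took old 2 down from 1233 CPM. Young 1 had 0 called doublets and kept its value. Its fall in Col1a2 from 531 to 30.9 CPM came with leaving out 2 cells with 1 Xcr1 or Clec9a UMI. Of these, 1 held 33981 UMIs, beside a median of 17881 in that library. The sums thus depend on few cells. The part of progenitor transcripts in the lower genes was not tested.

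Skint3 and Xlr were the exceptions among the DESeq2 calls, being higher in cDC1 than outside the gates. Skint3, a gene of the Skint family of butyrophilin-like proteins first known from the selection of skin T cells, lies on chr4:112232245-112300468 (plus strand, mm10, from the GENCODE annotation). It had 5.25, 10.3 and 4.95 CPM in old cDC1 and 30.4, 18.8, 23.6 and 36.1 CPM in young cDC1, and 2.05 CPM outside the gates. All old libraries were below all young ones, with a log2 fold change of -1.87 (SE 0.38), an edgeR adjusted p of 0.351 and a DESeq2 adjusted p of 0.0444. In cells with at least 2 UMIs of Xcr1 and Clec9a it had 5.60, 10.5 and 2.30 CPM in old and 34.0, 14.7, 16.9 and 20.1 CPM in young. Xlr, the founding member of the X-linked lymphocyte-regulated family, lies on chrX:53777118-53797706 (minus strand) and had 15.7, 20.1 and 6.94 CPM in old and 33.2, 72.7, 35.4 and 45.2 CPM in young. Its log2 fold change was -1.76 (SE 0.39), with an edgeR adjusted p of 0.525 and a DESeq2 adjusted p of 0.0294. Both genes belong to families with close copies, so how reads were split between copies is uncertain.

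None of the higher genes passed by edgeR or DESeq2 on the filtered counts. Without the expression filter edgeR called 81 genes, 3 higher in old (Jchain, Hbb-bs and Apol7c) and 78 lower. Sh3bp1, a GTPase-activating protein for Rac and Cdc42, had 164, 167 and 153 CPM in old cDC1 and 91.3, 111, 97.4 and 102 CPM in young cDC1 (log2 fold change 0.69, SE 0.19, edgeR adjusted p = 0.580). Acox3, a peroxisomal acyl-CoA oxidase of branched fatty acids, had 110.2, 101 and 83.2 CPM in old and 63.6, 59.0, 39.8 and 65.3 CPM in young (0.78, SE 0.22, edgeR adjusted p = 0.647). Fuca1, a lysosomal fucosidase, had 289, 233 and 268 CPM in old and 213, 189.7, 165 and 170.2 CPM in young (0.55). Dennd5b (1.04), the transcription factor gene Usf1 (0.74), D15Ertd621e (0.63), the glutaminyl-tRNA synthetase gene Qars (0.57), Taf5l (0.82), the ubiquitin ligase gene Trim11 (0.83) and Pithd1 (0.77) completed the 10, all with old libraries above young ones. They were picked for that lack of overlap, which is no support for them.

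**Figure D4:**
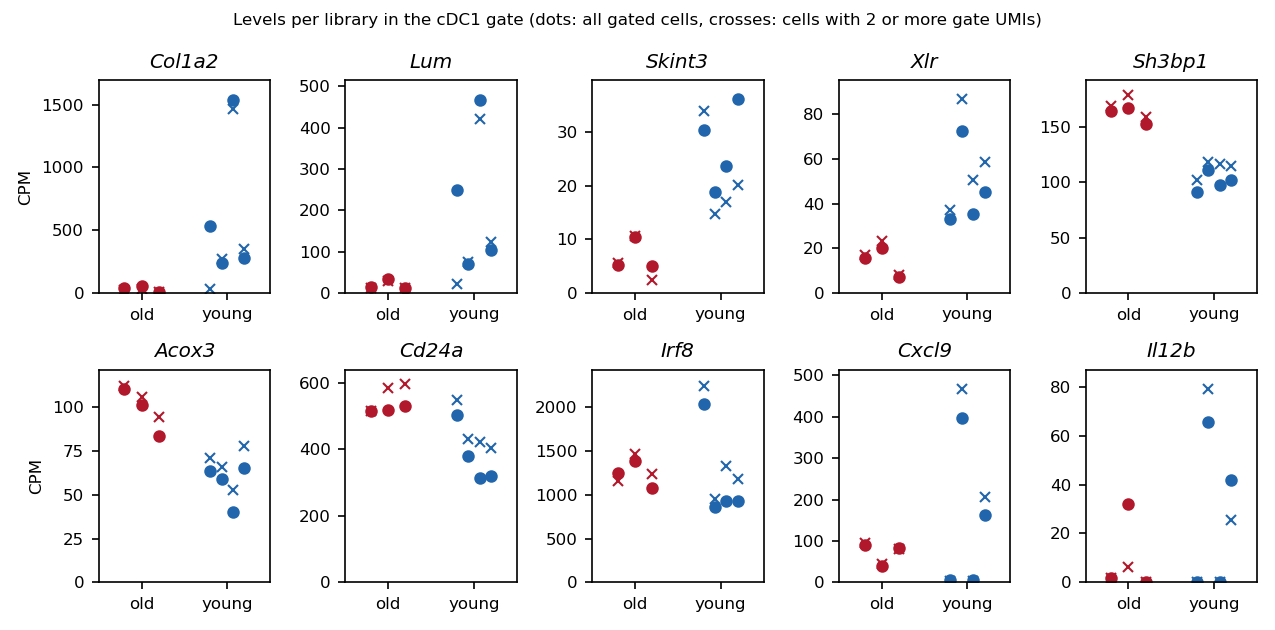
CPM (linear axes from 0) of 10 genes in each library's cDC1 sum, old left of young, with dots for all cDC1 cells and crosses for the cells with at least 2 UMIs of Xcr1 and Clec9a. Skint3 is lower and Sh3bp1 higher in old without overlap, the Col1a2 dot of young 1 stands at 531 CPM and its cross at 30.9 CPM, and Irf8 overlaps because young 1, at 2039 CPM, is the highest library.

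By function, no list held a gene that passed by edgeR. Over all 7551 genes tested other than the gate genes, 4017 had a positive and 3534 a negative fold change. Of the 30 cDC1 core genes tested, 23 had a positive and 7 a negative fold change, with a median of 0.12 on the log2 scale. In cells with at least 2 UMIs the same list split into 14 and 16, with a median of -0.021. Without young 1 it had 27 positive and 3 negative, with a median of 0.30, and 5 were higher at an unadjusted edgeR p under 0.05. Over all 7742 genes tested without young 1, 130 were higher and 308 lower at that p. Cd24a, a heat-stable antigen glycoprotein of cDC1, was the core gene with the lowest p when all libraries were used. It had 516, 519 and 530.0 CPM in old and 504, 379, 314 and 319 CPM in young, without overlap. Its log2 fold change was 0.51 (SE 0.20), with an edgeR adjusted p of 0.9998. Irf8 had a fold change of 0.11, Naaa of 0.0081, Batf3 of 0.050 and Flt3 of 0.021. The mean of Irf8 was 1234 ± 154 CPM in old and 1189 ± 568 CPM in young (SD, n = 3 and 4), and the young spread came from young 1.

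The MHC class II list had 11 of 12 genes with a positive fold change, median 0.22, and the class I and cross-presentation list 21 of 28, median 0.076. Without young 1 these were 9 of 12 with a median of 0.13 and 19 of 28 with a median of 0.14. The spread among libraries was larger than this: H2-Aa averaged 9521 ± 3045 CPM in old and 8878 ± 1252 CPM in young (SD, n = 3 and 4), and old 3, at 13024 CPM, held the highest value. Calr, the endoplasmic reticulum chaperone calreticulin, had 824, 813 and 774 CPM in old and 755, 689.8, 619.9 and 528 CPM in young, without overlap (log2 fold change 0.35, edgeR adjusted p = 0.9998). Of the 17 chaperone genes of that compartment, 14 had a positive fold change, median 0.14.

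Chemokine and cytokine genes had mainly negative fold changes, 13 of 19, with a median of -0.47. Cxcl9, which draws CXCR3-bearing T cells, had 91.0, 39.5 and 82.2 CPM in old and 5.53, 398, 5.90 and 164 CPM in young. Il12b, the p40 chain of interleukin 12, had 1.75, 32.2 and 0 CPM in old and 0, 65.6, 0 and 41.7 CPM in young. In both genes young 2 and young 4 were high and young 1 and young 3 were low, so the ages overlapped. The high levels rested on few cells. Single cells of young 2 held 197, 235 and 189 Cxcl9 UMIs, and the next highest held 35. In young 4 a single cell held 198 Cxcl9 UMIs, and the next highest held 13. For Il12b, single cells held 64 and 27 UMIs in young 2, and 30 and 27 in young 4, where the next highest held 2. These Il12b cells held 12 and 42 Ccr7 UMIs in young 2, and 2 and 1 in young 4. Of the Cxcl9 cells, that of young 4 held 6 Ccr7 UMIs and those of young 2 held 0. All had 0 Fscn1 UMIs, so they stayed within the limits. Ccr7 was detected in 50 of the 410 cDC1 cells, 17 of 186 old and 33 of 224 young. The part of cells with Ccr7 in these levels was not tested. Ccl22, a ligand of CCR4, had 7.0, 31.0 and 16.8 CPM in old and 0, 78.8, 26.6 and 109.8 CPM in young (-1.61, edgeR adjusted p = 0.9998). Il6, an inflammatory cytokine gene, had 7.0, 5.47 and 6.94 CPM in old and 2.77, 24.9, 29.5 and 13.2 CPM in young (-1.57, edgeR adjusted p = 0.875).

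Young 1 was the lowest library for each of these genes but Il12b, where young 3 and old 3 were also at 0. Without it, 14 of 19 chemokine and cytokine genes were lower, with a median of -0.82, and 19 of 24 immediate early genes were lower, with a median of -0.41, against 12 of 24 and -0.045 with it. Limiting the sums to cells with at least 2 UMIs of Xcr1 and Clec9a brought the chemokine median to -0.17, over 16 genes. At an unadjusted edgeR p under 0.05, 1 of 19 chemokine and cytokine genes was lower with young 1. Without young 1 it was 8 of 19, and in the cells with at least 2 UMIs 3 of 16. None was higher at that p. Over all genes tested, 241 of 7551, 308 of 7742 and 195 of 7063 were lower, in the same order. The cDC2 list had 14 of 17 genes lower in old, median -0.45, and -0.23 over 15 genes in the cells with at least 2 UMIs. Without young 1 it also had 14 of 17 lower, with a median of -0.60. At an unadjusted edgeR p under 0.05, 7 of 17 cDC2 genes were lower without young 1. With young 1 this was 0 of 17, and 1 of 15 in the cells with at least 2 UMIs.

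Among the 26 proliferation genes 20 had a negative fold change, median -0.16, and Mki67 had 226, 139.8 and 83.2 CPM in old and 85.8, 135, 208 and 195 CPM in young. Interferon response genes were lower in 16 of 26, median -0.22. Without young 1 the proliferation list had 22 of 26 lower, median -0.20, and the interferon list 18 of 26, median -0.33. Ifi27l2a, an interferon-induced mitochondrial protein gene, had 187, 492 and 254 CPM in old and 1251, 475, 511 and 551 CPM in young (-1.12, edgeR adjusted p = 0.864), with old 2 inside the young range. Tgfbr2, the type 2 receptor of TGF-beta, which is needed for CD103 expression on dendritic cells, had 24.5, 35.9 and 13.9 CPM in old and 88.5, 55.4, 48.7 and 29.9 CPM in young (-1.07, edgeR adjusted p = 0.864). Cdkn2a, the senescence gene that encodes p16, had no UMI in the cDC1 of any library. Cdkn1a, which encodes p21, had 115, 147 and 195 CPM in old and 36.0, 323, 159 and 251 CPM in young.

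Markers of other cells were read beside these lists. The monocyte list summed to 1616 to 2026 CPM in old and 2287 to 3656 CPM in young cDC1, without overlap. Its members Lyz2 and Ccr2 were detected in 96.8% and 88.8% of the cDC1 cells, so the sum is not one of monocyte transcripts alone. All 7 tested genes of this list were lower in old, median -0.87, and 6 of 6 with a median of -0.37 in cells with at least 2 UMIs. The part of the monocyte list in the cDC2 and chemokine values was not tested. The plasmacytoid dendritic cell list had 6 of 6 tested genes lower in old, median -0.69, with 5 of 5 and -0.79 in cells with at least 2 UMIs and 7 of 7 and -1.04 without young 1. Its part in the interferon and cDC2 values was not tested. The 13 resident macrophage markers summed to 132 to 285 CPM in old and 49.8 to 410 CPM in young. The haemoglobin gene Hbb-bs had 273, 15.2 and 7.93 CPM in old and 5.53, 6.61, 4.43 and 16.0 CPM in young, with old 1 far above the rest.

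**Figure D5:**
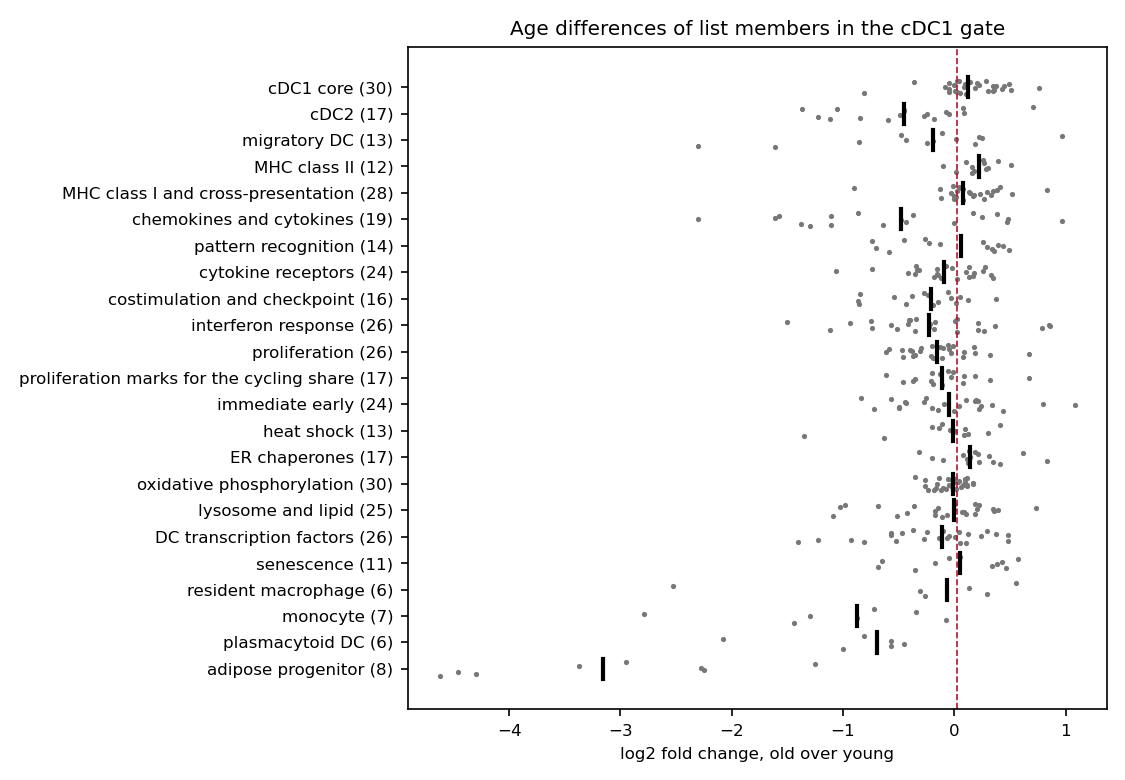
log2 fold change of old over young cDC1 sums (horizontal axis) for the tested genes of each list, 1 point a gene, with a black bar at the list's median, the number of genes in brackets and a dashed line at the median of all genes tested. The 8 adipose progenitor markers all lie below 0 with a median of -3.16, while the cDC1 core genes have a median of 0.12.

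Whether age acted otherwise on cDC1 than on cDC2 was tested as the difference of both age effects within libraries, over the same 6 libraries. None of 8415 genes (0%) passed in edgeR, and 319 (3.79%) had an unadjusted p under 0.05. This fit was not run in DESeq2. Skint3 had 42.6, 88.3 and 46.1 CPM in the cDC2 of the old libraries and 48.8, 57.6 and 57.1 CPM in the cDC2 of young 2, 3 and 4. Its age effect in cDC1 minus that in cDC2 was -1.96 (SE 0.35, edgeR adjusted p = 0.521). For Ccl9 the difference was -0.93 (edgeR adjusted p = 0.521) and for Gzma, a granzyme of cytotoxic lymphocytes, it was -6.27 (edgeR adjusted p = 0.336). Gzma had 51.4 CPM in the cDC1 of young 2 and 0 to 2.77 CPM in the cDC1 of the other libraries. Plet1 (-4.74) and the cyclin gene Ccnd2 (-1.84) followed. In the other direction were Pou2f2, a transcription factor gene of B cells (1.44), Arsb, a lysosomal sulfatase gene (0.98), Ttc5 (1.77), the mitochondrial aspartate aminotransferase gene Got2 (1.00) and Clec12a, an inhibitory lectin receptor gene (0.97).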

How the data were processed

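The deposited files hold, for each library, whole-number UMI counts, as the authors made them, per gene and barcode for 27998 genes. Per the submitters' processing notes, Cell Ranger 4.0.0 and build mm10 were used, and other upstream settings are not given in the sources used here. Barcodes were kept with at least 500 UMIs, 300 genes and at most 15% mitochondrial UMIs, which left 39566 of 45514. Doublets were called with Scrublet in scanpy 1.11.5 at 0.8% per 1000 barcodes, kept in the main values and left out as an alternative. Gates were set on raw counts, and counts were summed per library. A gate's sum entered a comparison from 10 cells. Sums were tested with edgeR 4.0.16 (filterByExpr, TMM scaling, quasi-likelihood F test, Benjamini-Hochberg adjustment over all genes tested), and with DESeq2 1.42.0 as an alternative, in R 4.3.3. Shares were compared as logits, with 0.5 added to counts, by exact permutation in scipy 1.17.1. CPM are counts divided by the gate's summed UMIs in the library, without TMM scaling, and log2 ratios of cDC1 to cDC2 had 1 CPM added. Intervals are exact 95% Clopper-Pearson intervals and cover counting error only. The self-test ran the same fits on simulated counts.

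The members and gene lists were chosen with earlier results of these data known. Named by rule were up to 10 genes per direction with the lowest p among genes without overlap between the ages, at least 20 CPM at 1 age and at most 10 times higher outside the gates. Further named were up to 4 genes per list that passed or otherwise the 2 with the lowest p, a list of cDC1 and ageing genes, the 10 genes with the highest ratios in each direction beside cDC2, and 5 genes per direction in the comparison of age effects. Genes outside this rule (the class I and class II processing genes beside cDC2, Havcr2, Id2, Col1a2 and Hbb-bs) were chosen after their values were seen. Siglech, Lyz2, Ccr2 and, in cycling cells, Cst3 were also outside it. So were Mir155hg, Bcl2a1b, Jchain and Apol7c, which were named because an alternative fit called them. Same-numbered libraries did not deviate together from their group means (correlations of 0.0577, 0.0153 and -0.0949), so the numbers were not taken as pairs.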

Additional observations from a re-analysis of the deposited data

Results flagged for a closer look

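Within the 4 young libraries, 1 library lay far from the other 3 for 8 of the 74 gene levels examined in this way. Chance alone would single out about 1 in 20 if the levels were independent. They come from the same 4 sums, so that rate does not measure how unusual these 8 genes are. Young 1 held the highest cDC1 level of 7 of these genes. They were Irf8 at 2039 CPM (next highest 933), Naaa at 2296 CPM (946), Batf3 at 221 CPM (104.8), Tlr3 at 207 CPM (66.4), Ifi27l2a at 1251 CPM (551), Pdia3, an oxidoreductase of MHC class I loading, at 373 CPM (164), and Rrm2, a subunit of ribonucleotide reductase, at 105.1 CPM (44.5). Qars was lowest in young 2, at 45.8 CPM, with the next lowest library at 56.1 CPM. Young 1 held 20 cDC1 cells, 2 of them with 1 UMI of Xcr1 and Clec9a.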

How the results depend on the processing

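The difference in logit share of cDC1 among kept cells (-0.138) turned to 0.0699 when kept cells were thinned to 3000 UMIs, was -0.462 with the C1q genes at 0 UMIs, and ran from -0.406 to 0.137 as single libraries were left out. Among gated dendritic cells (0.0302) it turned to -0.176 under the stricter cell filter, -0.00836 with Cd74 at 10 UMIs or more and -0.0989 with the replicate block, and ran from -0.140 to 0.358 as single libraries were left out. The cycling share kept its sign under every alternative run, from -0.374 to -0.131 as single libraries were left out and -0.364 in cells with at least 2 UMIs of Xcr1 and Clec9a, an alternative chosen after seeing the data. Genes by age numbered 0 with edgeR, 51 with DESeq2, 81 (3 higher, 78 lower) without the expression filter, 1 under the stricter cell filter and 0 to 4 as single libraries were left out. With the replicate block edgeR called 0. Over the single genes and alternatives, 53 values changed sign, 1121 kept sign and side of the threshold, and 23 newly passed it, all for lower genes. The age effect by gate could not be fitted without young 1, which was not in it. Causes of these shifts were not tested. Depth limits low genes: 1 UMI in the smallest sum equals 2.77 CPM.

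Signs turned in log2 fold changes of these genes. With the replicate block, Batf3 was -0.018, Naaa -0.00506, Zbtb46 0.060, Cxcl9 1.11, Cxcl16 0.38, Mki67 0.046 and Cdkn1a 0.21. With doublets left out, Batf3 was -0.017, Flt3 -0.044, Naaa -0.036, Zbtb46 0.019 and H2-K1 -0.010. In cells with at least 2 UMIs of Xcr1 and Clec9a, Irf8 was -0.13, Batf3 -0.066 and Naaa -0.14. With C1q genes at 0, Tmem173 was -0.050, Irf8 -0.070, Batf3 -0.16, Flt3 -0.21, Naaa -0.22 and Mki67 0.21. DESeq2 gave -0.012 for Naaa and 0.0046 for Cxcl16, scaling by RLE gave -0.011 for Naaa, the stricter cell filter gave -0.00561 for Naaa and 0.070 for Cxcl16, and no expression filter gave 0.017 for Cxcl16. As single libraries were left out, Irf8 ran from -0.044 to 0.43, Batf3 from -0.083 to 0.35, Flt3 from -0.10 to 0.097, Naaa from -0.16 to 0.46, Itgae from -0.27 to 0.67 and Zbtb46 from -0.28 to 0.16. Ifi30 ran from -0.035 to 0.58, H2-Aa from -0.27 to 0.37, H2-K1 from -0.085 to 0.26, Cd86 from -0.35 to 0.018, Mki67 from -0.48 to 0.12, Cxcl9 from -1.49 to 0.053 and Cxcl16 from -0.19 to 0.33.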
